A study of Mus musculus with 6 samples.

Results

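Described here are 65 genes of the splicing machinery of the mouse: the SR proteins (Srsf), the hnRNPs, the SF3A, SF3B and U2AF subunits, the Sm and other snRNP proteins (Snrp) and the numbered pre-mRNA processing factors (Prpf). They were picked out by the start of their gene symbol, a rule that uses no measured value, and are 65 of the 23538 genes in the tables. By role they are 11 SR proteins, 18 hnRNPs, 11 SF3A, SF3B and U2AF genes, 12 snRNP protein genes and 13 Prpf genes. The study profiled blood-forming cells from the bone marrow of wild-type mice and of mice of genotype Mof -/+, which carry 1 intact copy of the gene for the histone acetyltransferase MOF (gene symbol Kat8). The labels give no further description of the allele, the strain or the ages, and name no other treatment. CEL-Seq2 libraries, which count a tag at the 3′ end of each messenger RNA, were made from sorts of 15 cells, with 3 libraries for each of 6 populations in each genotype and 36 in all.

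The populations were haematopoietic stem cells (HSC; Lin-, Sca-1+, cKit+, or LSK, with CD150 but no CD34, Flt3 or CD48), the LSK multipotent progenitors MPP2 (CD34+ CD48+ CD150+ Flt3-), MPP3 (CD34+ CD48+ without CD150 or Flt3) and MPP4 (CD34+ CD48+ Flt3+ without CD150), and 2 kinds of Lin- Sca-1- cKit+ IL7r- progenitor. These were common myeloid progenitors (CMP; CD34+, CD16/32 low) and megakaryocyte-erythroid progenitors (MEP; without CD34 or CD16/32). The names of the tables are the only label of the population of a library. Each genotype was sequenced in its own pools, 1 for HSC, 1 for the MPPs and 1 for CMP and MEP, so genotype and pool cannot be told apart, nor can pool be separated from most differences between populations. Whether replicate libraries stem from different animals is not stated in the labels, and p-values therefore measure only the spread between libraries, which may be technical.

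As background, introns are removed from pre-mRNA by the spliceosome, which is built on each intron from small nuclear RNAs bound by a ring of Sm proteins. The U2AF dimer binds the end of the intron, SF3A and SF3B hold the U2 particle on the branch point, and PRPF proteins belong to the U4/U6.U5 particle or to the later catalytic complexes. SR proteins and hnRNPs bind exons and introns and shift the choice of splice sites, often in opposite directions. In blood, the human counterparts of Sf3b1, Srsf2 and U2af1 are recurrently mutated in myelodysplastic syndromes.

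Library totals ran from 1577 to 123765 counts with a median of 41227, and levels are given as CPM, a gene's count relative to all counts of its library, on one scale in every library. Tags come from the 3′ end, so CPM is used between genes with no division by length; whether reads or molecules were counted is not given in the sources used here. In 6 libraries, called shallow here, the total was 12339 or less, against 18040 or more in the others: all 3 wild-type MPP2 libraries, wild-type MPP3 replicates 1 and 2, and heterozygous HSC replicate 2, which holds the 1577. A single count was worth 634 CPM in that last library. Kat8 itself had 12 counts in the 18 wild-type and 11 in the 18 heterozygous libraries, 18.3 CPM (exact Poisson 95% interval 9.45 to 31.9) and 9.86 CPM (4.92 to 17.6), too few to check the genotype. Genes of mature neutrophils, a cell type outside all 6 gates, summed to over 20000 CPM in 4 libraries (wild-type MPP3 replicate 1, MPP4 replicate 3 and MEP replicate 2, and heterozygous MEP replicate 3). The 9 gate markers were sparse and followed the gates only in part. As a mean over 6 libraries, Flt3 was highest in MPP4 (247 CPM) but was 70.5 and 75.4 CPM in MPP2 and MPP3, both gated as Flt3-. Ly6a, which encodes Sca-1, was at 0 in MEP and 113 CPM in HSC, but 24.8 and 19.7 CPM in MPP2 and MPP3. Slamf1, which encodes CD150 and had 21 counts in all, was highest in HSC (27.5 CPM), gated with it. It was at 0 in MPP2, gated as CD150+, and 12.2 CPM in MPP4, gated without it. Cd48 was lowest in HSC (44.9 CPM), gated without it. Il7r was 4.04 and 1.90 CPM in CMP and MEP, both gated as IL7r-. Cd34 was highest in MPP3 (422 CPM), gated as CD34+. However, it was 90.7 CPM in MPP2, also gated as CD34+, and 51.9 and 92.9 CPM in HSC and MEP, gated without it.

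As a group the splicing genes were abundant, with levels that differed widely between members. Together they made up 30657 of 1771518 counts, or 1.73%. Averaged over the 12 groups, 41 of the 65 members (63.1%) exceeded 100 CPM and 24 exceeded 300 CPM, whereas 7.91% of all genes exceeded 100 CPM. The 5 members with the most counts held 22.5% of the members' counts. At the other end, Srsf12 and Snrpn had no count in any library, Hnrnpa1 had 2 counts and Srsf4 had 4. The order of the 65 levels was much alike in the genotypes (Spearman's rho of 0.987 across genes between the wild-type and heterozygous means) and in every pair of populations (0.941 to 0.985). These correlations are across genes, which share libraries and 3′ ends, and are given as a description.

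**Figure D1:**
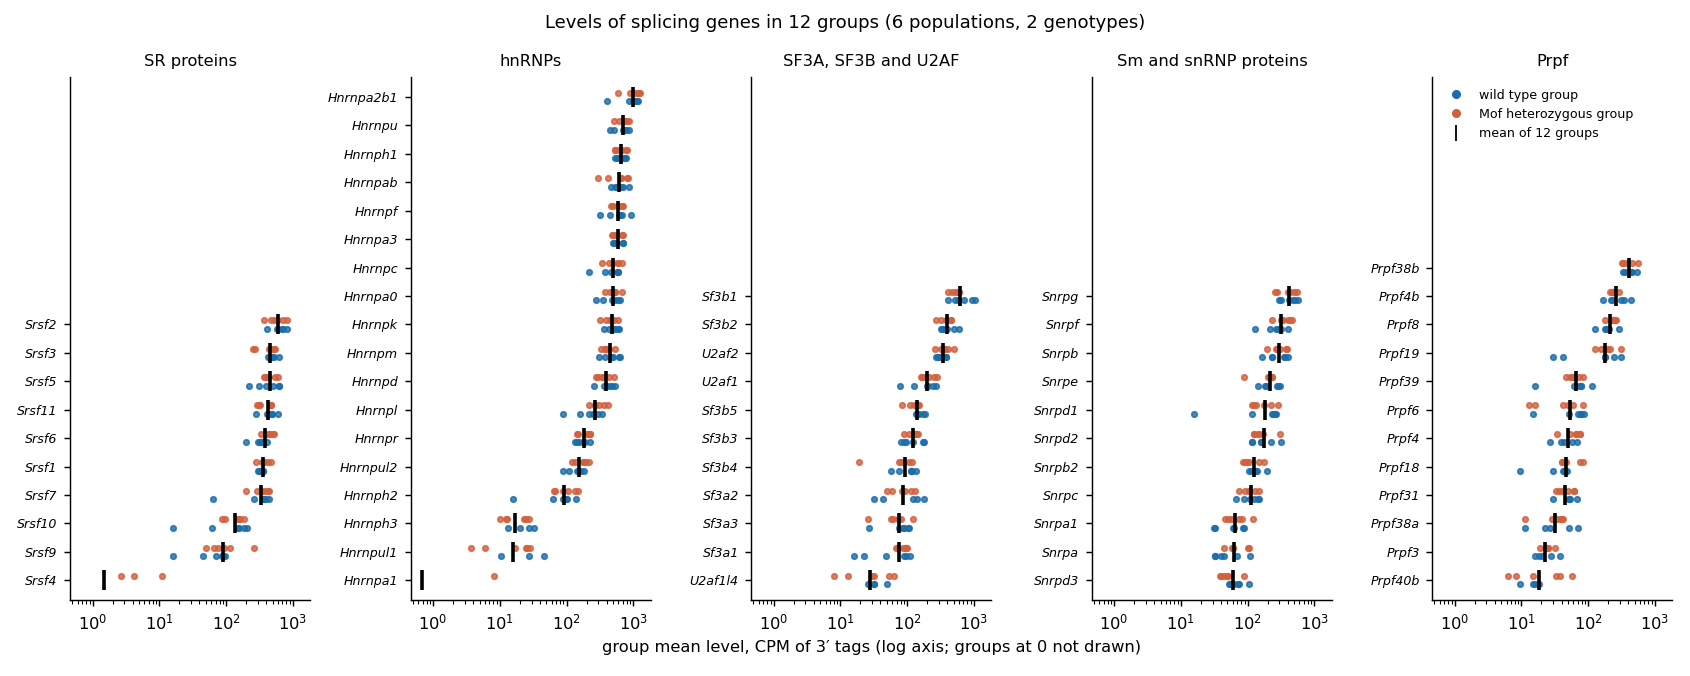
Levels of 62 of the 63 members with any count, by role, on a log axis of CPM of 3′ tags. Each point is the mean of 3 libraries of 1 population and genotype (blue wild type, orange heterozygous, groups at 0 not drawn), and the black tick is the mean of the 12 groups. Most members of a role keep their rank. The spread differs among genes over 100 CPM. With both genotypes averaged, the highest population mean is 1.35-fold (U2af2) to 3.94-fold (Snrpd1) the lowest.

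Among the hnRNPs, which coat nascent transcripts, Hnrnpa2b1 was the most abundant member of all, with a mean of 987 CPM over the 12 groups. Its level ran from 0 to 1488 CPM in wild-type libraries (median 1043) and from 0 to 1374 in heterozygous libraries (median 1067), so the genotypes overlapped over all populations, although in MPP3 they did not. The 2 libraries at 0 were both shallow (wild-type MPP3 replicate 2 and heterozygous HSC replicate 2). Hnrnpu, a nuclear scaffold and RNA-binding protein, followed with a mean of 689 CPM, and Hnrnph1, which binds runs of G, with 657 CPM. Some close paralogs stood far apart: Hnrnph1 was 7.08-fold above Hnrnph2 (92.8 CPM), and Hnrnpul2 (155 CPM) was 9.88-fold above Hnrnpul1 (15.7 CPM). Others did not, as Hnrnpa2b1 was 1.69-fold above Hnrnpa3 (583.5 CPM). Hnrnpa1, which encodes one of the best known splicing repressors, was seen only as 1 count each in heterozygous MEP replicates 1 and 3. None of the 50-base words in the last 500 bases of its annotated transcript lay in the transcript of another gene, and the cause of its low count was not tested.

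The SR proteins, activators that bind exonic enhancers, were led by Srsf2 (607 CPM), Srsf3 (458 CPM) and Srsf5 (451 CPM). Srsf2 ran from 137 to 1154 CPM in the wild-type libraries, and in the heterozygous libraries from 0 (HSC replicate 2) to 1006. In MEP, Srsf2 measured 845, 486 and 723 CPM in wild-type and 661, 892 and 570 CPM in heterozygous libraries, which overlap. Of the 11 SR genes, 8 exceeded 100 CPM, and the others were Srsf9 (88.7 CPM), Srsf4 and Srsf12.

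In the group that recognises the 3′ splice site and the branch point, Sf3b1, the largest SF3B subunit, had 614 CPM, Sf3b2 399 CPM and U2af2, the large U2AF subunit, 348 CPM. Sf3b1 in MPP4 measured 679, 865 and 1275 CPM in wild type and 548, 592 and 659 CPM in heterozygous libraries, so that all 3 wild-type values were above the heterozygous ones on the CPM scale. In MPP2 they also separated, at 1258, 973 and 885 CPM in wild type, where all 3 libraries are shallow and the values rest on 10 to 13 counts, against 705, 260 and 458 CPM. On the CPM scale 2 of 58 members were lower without overlap in MPP4 (3.88% of all genes) and 1 in MPP2 (4.97%). On the scale of the deposited values, used for the genotype test below, Sf3b1 separated in MPP2 but not in MPP4. The 1275 CPM is from wild-type MPP4 replicate 3, where mature neutrophil genes summed to 33204 CPM. In CMP the Sf3b1 values were 377, 568 and 602 CPM against 470, 483 and 606 CPM, which overlap. The 5 Sf3b subunits, which belong to 1 complex, spanned 6.62-fold from Sf3b1 to Sf3b4 (92.8 CPM). U2af1 (200 CPM), the small U2AF subunit, and U2af1l4 (28.3 CPM) are uncertain, because 71.2% and 100% of the 50-base words of their 3′ ends also occur in transcripts of other genes.

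The Sm proteins form a ring with 1 copy of each subunit, but their tags were unequal. Snrpg had 418 CPM, Snrpf 316 CPM and Snrpb 297 CPM, and the ring spanned 6.87-fold from Snrpg down to Snrpd3 (60.9 CPM). Snrpg in CMP measured 700, 449 and 393 CPM in wild-type and 438, 662 and 566 CPM in heterozygous libraries, with no separation of the genotypes. Snrpn, a paralog of Snrpb known from neurons, was at 0 counts in all 36 libraries. For Snrpc, Snrpe and Snrpa, 35.5%, 28.6% and 25.3% of the 50-base words of the 3′ end are shared with other genes, as are 11.8% for Sf3b4, and their levels are uncertain to that extent. The other 59 members shared at most 3.55%, and 55 shared none.

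The Prpf genes were the least abundant role, with a median of 53.8 CPM over the 13 genes against 463 CPM for the 18 hnRNPs and 356 CPM for the 11 SR genes. Prpf38b had 410 CPM, 13.1-fold above its paralog Prpf38a (31.4 CPM). Prpf4b, a kinase of the spliceosome, had 265 CPM. Prpf38b in CMP measured 359, 356 and 497 CPM in wild-type and 422, 269 and 275 CPM in heterozygous libraries, again overlapping.

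By library, the summed share of the 65 genes ran from 0.571% to 2.19% of counts, and 34 libraries lay above 1%. The lowest was heterozygous HSC replicate 2, where the share rests on 9 counts (exact 95% interval 0.261 to 1.08%, counting error only). The next was wild-type MPP4 replicate 3 at 0.981%, against 2.19% and 2.04% in the other wild-type MPP4 libraries; its summed mature neutrophil level was 33204 CPM, against 209 and 446 CPM there. Late erythroid genes summed to 3714 CPM in that library, against 0 and 1363, and mature B cell genes to 2217 CPM, against 522 and 1180. In heterozygous MPP4 the lowest library, replicate 3 at 1.31%, had 6805 CPM of late erythroid genes, against 396 and 53.8 in the others, and only 390 CPM of neutrophil genes. Wild-type MEP replicate 2, with 33147 CPM of neutrophil genes, had 1.53%, against 1.99% and 1.91%, where the neutrophil sums were 634 and 11448 CPM. In heterozygous MEP, replicate 3 with 27972 CPM had 1.74%, and the other 2, with 557 and 759 CPM, had 1.88% and 1.90%. In wild-type MPP4, in CMP and MEP of both genotypes and in heterozygous HSC the library with the highest neutrophil sum had the lowest share. That library is shallow in HSC (3171 CPM). In CMP the sums were 6892 CPM (wild-type replicate 2) and 735 CPM (heterozygous replicate 3, against 714 and 550 CPM in the others). The pattern did not hold in heterozygous MPP4, where the library with the lowest share had the lowest neutrophil sum. Nor did it hold in wild-type MPP3, where replicate 1 with 20400 CPM had 1.42% and replicate 2 with 4703 CPM had 1.30%. Both are shallow, and their exact 95% intervals overlap (1.16 to 1.72% and 0.914 to 1.80%). In wild-type MPP2 the pattern also failed, as replicate 1 with 18778 CPM had 1.51% and replicate 3 with 266 CPM had 1.45%. These are shallow too, with overlapping intervals (1.28 to 1.76% and 1.24 to 1.69%). Wild-type HSC and heterozygous MPP2 and MPP3 did not follow the pattern either. The part of such cells in the share was not tested. In bulk sorts, fewer cells of a type and less RNA per cell cannot be told apart.

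Median shares over the 6 libraries of a population were 1.48% for MPP3, 1.49% for MPP2, 1.54% for HSC, 1.79% for MPP4, 1.81% for CMP and 1.89% for MEP. Without the shallow libraries the medians were 1.57% in HSC, 1.47% in MPP2 and 1.52% in MPP3, with the other 3 unchanged by construction. In CMP all 6 libraries lay between 1.63% and 1.87%, and the 3 heterozygous values (1.84%, 1.87% and 1.82%) lay above the 3 wild-type values (1.80%, 1.63% and 1.71%). In MPP3, the heterozygous values of 1.64%, 1.54% and 1.505% stood above 1.42%, 1.30% and 1.46% in wild type, the first 2 of these shallow, and in the other 4 populations the genotypes overlapped. By role the medians over 36 libraries were 0.724% for the hnRNPs, 0.334% for SR genes, 0.230% for SF3A, SF3B and U2AF, 0.217% for snRNP proteins and 0.165% for Prpf genes.

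**Figure D2:**
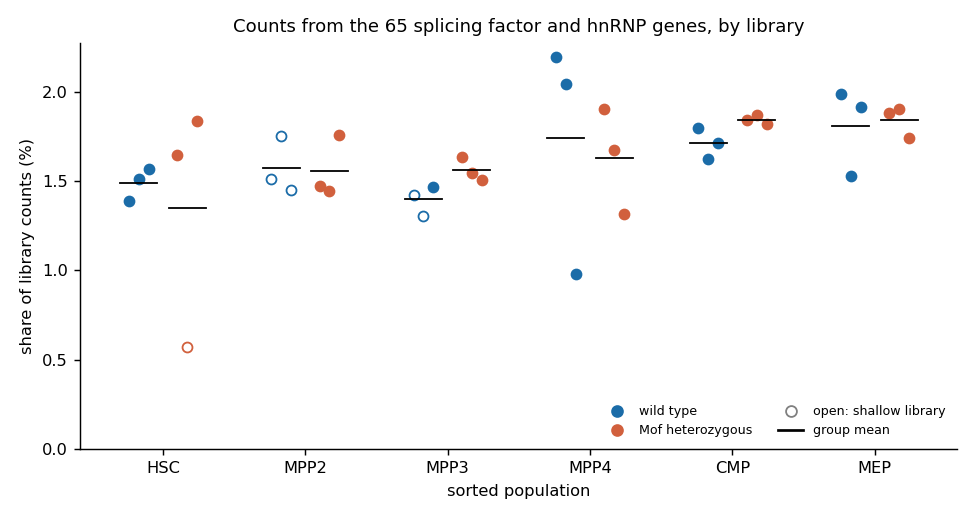
Share of each library's counts from the 65 genes (y axis, percent) by sorted population (x axis). Each point is 1 library (blue wild type, orange heterozygous, open for the 6 shallow libraries) and black lines are means of 3 libraries; most lie between 1.30% and 2.04%, with heterozygous HSC replicate 2 at 0.571% and wild-type MPP4 replicate 3 at 0.981%.

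The first comparison asks whether cells of genotype Mof -/+ differ from wild type in these transcripts. No member passed the test. The test was limma on log2(deposited value + 1) over all 36 libraries, averaged over the 6 populations with equal weight and adjusted over the 6444 genes whose mean value reached 1 (Benjamini-Hochberg, threshold 0.05). Of the 65 members, 58 passed the filter, and the other 7 were Hnrnpa1, Hnrnph3, Hnrnpul1, Prpf40b, Snrpn, Srsf4 and Srsf12. By limma 0 of 58 members were called, against 0.0776% of all genes tested, so the count says little by itself. At an unadjusted p under 0.05 there were 3 of 58 members, against 10.7% of all genes. With edgeR's count test on recovered counts, 0 of 37 members were called, against 1.9% of 1633 genes, and 3 had an unadjusted p under 0.05 (15.1% of all).

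The intervals bound the average difference on the log2(value + 1) scale, which understates the change of low genes. The 58 differences ran from -0.36 (Sf3b1) to 0.63 (Hnrnpl) on the log2(value + 1) scale with a median standard error of 0.26. For 56 of the 58 members the 95% interval lay inside a 2-fold change of value + 1 in either direction. For low members this is a larger change of the value itself, so a 2-fold change of their level is not bounded. The median difference was 0.10 for the members and 0.12 for all genes, and 39 of 58 members (67.2%) and 67.3% of all genes had a positive sign. By role, 11 of 15 hnRNPs, 6 of 9 SR genes, 6 of 11 SF3A, SF3B and U2AF genes, 8 of 11 snRNP genes and 8 of 12 Prpf genes were positive. On the CPM scale, the heterozygous to wild-type ratio of the 41 members over 100 CPM ran from 0.758 to 1.38 with a median of 0.999, and 20 of the 41 ratios were above 1.

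**Figure D3:**
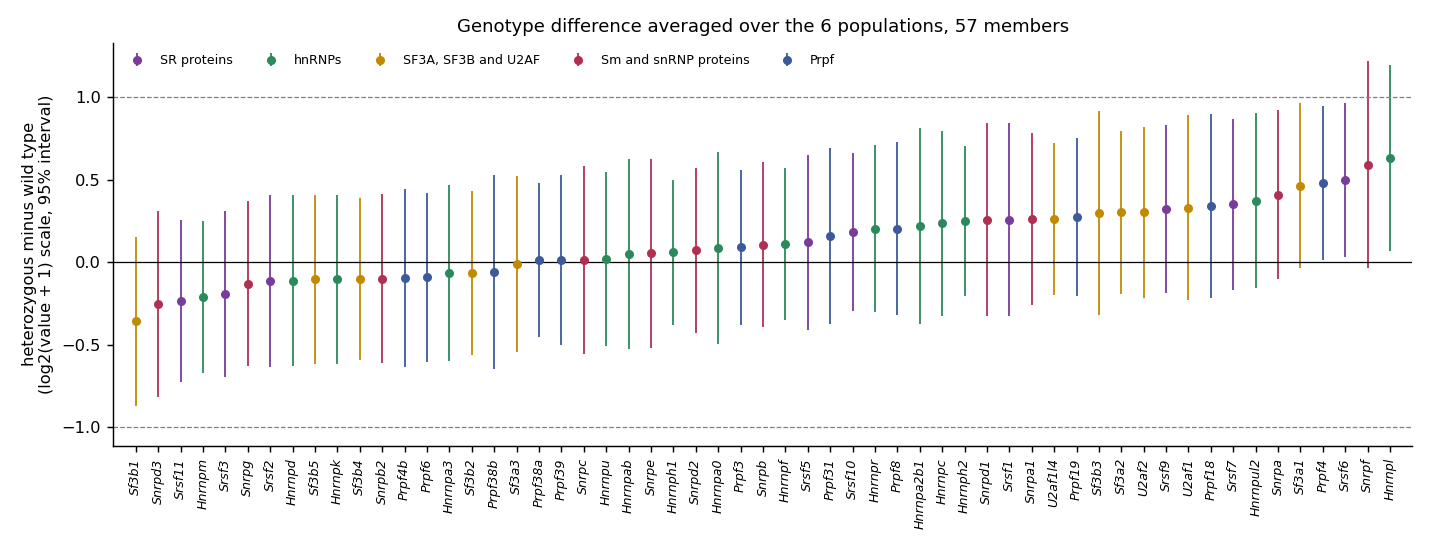
Heterozygous minus wild-type difference, averaged over the 6 populations, on the log2(value + 1) scale (y axis) for 57 of the 58 tested members (x axis, sorted; colours give the role). Bars are 95% intervals from limma. Dashed lines mark a 2-fold change of value + 1, which is a larger change of the value itself for low genes. Of these intervals 55 lie inside the lines, and those of Hnrnpl and Snrpf pass the upper one.

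The 3 members with the smallest p were Hnrnpl, Srsf6 and Prpf4, none past the threshold. Hnrnpl, which binds CA repeats and regulates alternative exons, measured 0, 199 and 65.4 CPM in wild-type HSC and 193, 0 and 466 CPM in heterozygous HSC. In MPP2 it was 387, 243 and 266 against 302, 416 and 386 CPM, in MPP3 0, 0 and 480 against 306, 250 and 252 CPM, and in MPP4 392, 341 and 277 against 304, 269 and 220 CPM. In CMP it was 233, 224 and 196 against 617, 337 and 315 CPM, and in MEP 335, 114 and 303 against 324, 306 and 285 CPM. The genotypes separated only in CMP, while in MPP4 the mean was lower in heterozygous libraries. The average difference was 0.63 (SE 0.28, limma adjusted p = 0.411). Its gene, at chr7:28808541-28822266 on the plus strand (GRCm38, the same sequence as mm10), overlaps the antisense gene Gm44702, and whether counting used strand is not given in the sources used here.

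Srsf6, an SR protein, had 136.9, 362 and 96.0 CPM in wild-type MPP3 against 596, 438 and 461 CPM in heterozygous MPP3, and 341, 317 and 366 against 389, 438 and 477 CPM in CMP. Both populations separated, and HSC, MPP2, MPP4 and MEP overlapped. In wild-type MPP3 replicates 1, 2 and 3 a single count was worth 136.9, 362 and 48.0 CPM. The Srsf6 values there thus rest on very few counts, in replicates 1 and 2 on 1 count each. The difference of the average was 0.50 (SE 0.23, limma adjusted p = 0.428; 0.55 with edgeR, adjusted p = 0.104). Prpf4, a component of the U4/U6 particle, was low, with 53.9, 39.6 and 26.2 CPM in wild-type CMP against 48.7, 67.3 and 80.8 CPM. It had no count in the 3 wild-type MPP3 libraries and 119, 12.5 and 27.9 CPM in heterozygous MPP3. A single count was worth 137 and 362 CPM in wild-type MPP3 replicates 1 and 2, so such levels were not detectable there. Its average difference was 0.48 (SE 0.23, limma adjusted p = 0.450). Leaving out any 1 of the 36 libraries called no member in this average.

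Within single populations limma called 0 of 58 members in each of the 6 comparisons. The background was 0.0155% of genes in HSC, 0.0776% in MPP2, 0.31% in MPP3 and 0.031% each in MPP4, CMP and MEP. At an unadjusted p under 0.05 the members numbered 7 in HSC (6.49% of all genes), 13 in MPP3 (16.1%), 3 each in MPP2 (7.77%) and MPP4 (7.45%), 0 in MEP (5.28%) and 1 in CMP (3.72%). Here edgeR also called 0 of 37 members in each, and those at an unadjusted p under 0.05 were 2 in HSC (6.18% of all genes), 7 in MPP3 (11.4%), 3 in MPP2 (15.7%), 1 in MPP4 (8.02%), and 0 each in MEP (5.57%) and CMP (2.57%). With 3 libraries a group these comparisons were imprecise: the median standard error was 0.63, and no member's interval lay inside a 2-fold change. The test that the genotype difference varies between populations called 0 of 58 members (0.031% of all genes; 3 members at an unadjusted p under 0.05, against 8.74%). With edgeR it called 0 of 37 (1.1% of genes), and 1 had an unadjusted p under 0.05 (9.37%).

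The HSC and MPP3 shifts were smaller or turned without the shallow libraries. In HSC, 45 of 58 members were lower in heterozygous libraries (72.5% of all genes were), with a median of -0.65 against -0.34 for all genes, but without the shallow libraries the median was 0.15 (all genes 0.01). In MPP3, 48 of 58 members (82.8%) and 78.5% of all genes were higher, with medians of 0.71 and 0.56. Without the shallow libraries, which leaves 1 wild-type MPP3 library, the medians were 0.22 and 0.16. Srsf7, an SR protein, came closest in MPP3: it had 0, 0 and 192 CPM in wild-type and 340, 225 and 307 CPM in heterozygous libraries. The difference was 2.21 (limma adjusted p = 0.0896), and the 2 libraries at 0 are the shallow ones. It was called without heterozygous HSC replicate 2 (adjusted p = 0.0301, with 4 members and 2.54% of all genes called) and without wild-type MPP3 replicate 3 (adjusted p = 0.00415, with 7 members and 6.14% of all genes called). In the second case only shallow wild-type libraries are left.

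On the deposited scale, counting genes whose 3 heterozygous libraries all lay on one side of the 3 wild-type libraries gave shares near the background in most populations. In MPP3, 16 of 58 members were higher without overlap, against 22.7% of all genes, and 0 were lower (1.18%). In HSC 0 were higher (0.729%) and 5 were lower (7.01%), in MPP2 6 were higher (10.4%) and 1 was lower (4.16%), and in MPP4 2 were higher (7.96%) and 2 lower (2.96%). In CMP 4 were higher (6.78%), namely Hnrnpl, Srsf2, Srsf6 and U2af2, and 1 was lower (5.73%), namely Srsf10. In MEP 0 were higher (6.75%) and 3 were lower (5.29%), namely Prpf19, Sf3b5 and Srsf11. These genes are named after their values were seen.

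The second comparison asks how the members differ between the 6 populations, averaged over both genotypes on counts scaled to a common total of 41227. By limma, 0 of 57 members differed among populations, against 4.14% of 6501 genes, and 7 of 57 had an unadjusted p under 0.05, against 19.9% of all genes. The edgeR count test called 2 of 37 members, Prpf19 (adjusted p = 0.0168) and Srsf7 (adjusted p = 0.0424), against 29.3% of 1633 genes (0 without the shallow libraries, against 18.7%, and 4 without the neutrophil-high ones, against 24.7%), and 7 of 37 had an unadjusted p under 0.05, against 40.2%. Both tools thus called a smaller share of these members than of all genes. For the 41 members over 100 CPM, the highest population mean was 1.35-fold (U2af2) to 3.94-fold (Snrpd1) the lowest, with a median of 1.604-fold. The highest mean stood most often in MEP (12 genes) and CMP (10), and the lowest most often in HSC and MPP3 (13 each).

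**Figure D4:**
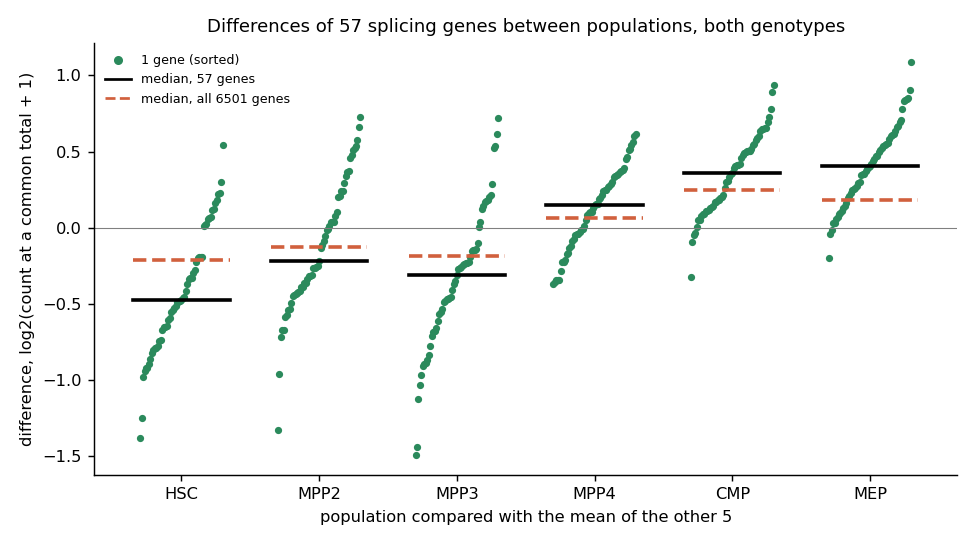
Differences of the 57 tested members between each population and the mean of the other 5 (y axis, log2(count at a common total + 1); 1 green point per gene, sorted), with the members' median (black) and that of all 6501 genes (dashed orange). Members lean upwards in CMP and MEP and downwards in HSC and MPP3, and the median of all genes leans the same way by less.

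In MEP, 54 of 57 members and 65.7% of all genes had a positive difference from the other 5 populations, with a median of 0.40 against 0.18 for all genes. Limma called 0 members (0.446% of all genes, 0.354% as higher), and 4 had an unadjusted p under 0.05 (10.4% of all genes). By role the positive members were 14 of 15 hnRNPs, 7 of 9 SR genes and all 11 of the tested genes in each of the other 3 roles. The lean was smaller without the shallow libraries, where 47 of 58 members were positive and the median was 0.25 against 0.07 for all genes. Without the 4 neutrophil-high libraries the median was 0.47 against 0.19. In CMP, 53 of 57 members and 72.6% of all genes were positive, with a median of 0.36 against 0.25 for all genes, and limma and edgeR called 0 (0.446% and 9.31% of genes), with 1 and 3 members at an unadjusted p under 0.05 (9.06% and 24.7% of genes).

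By edgeR 2 of 37 members were called higher in MEP, Prpf19 and Snrpd2, against 10.3% of 1633 genes called higher and 14.7% called either way; 8 of 37 members had an unadjusted p under 0.05, against 28.7%. Both genes were chosen after their values were seen. Snrpd2 encodes SmD2, a subunit of the Sm ring. It measured 229, 171 and 274 CPM in wild-type MEP and 324, 373 and 217 CPM in heterozygous MEP. In CMP it was 215, 106 and 157 against 130, 191 and 194 CPM, in MPP4 26.1, 210 and 111 against 194, 144 and 97.6 CPM, and in MPP2 96.8, 162 and 88.5 against 176, 104 and 96.5 CPM. In MPP3 it was 137, 724 and 96.0 against 119, 113 and 140 CPM, the 724 being 2 counts of a shallow library, and in HSC 103, 85.5 and 294 against 116, 0 and 326 CPM. MEP was the highest by mean in heterozygous libraries, and its values overlapped those of single libraries elsewhere.

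The difference of Snrpd2 in MEP was 0.88 on the log2 scale (edgeR adjusted p = 0.0122), and it was called without the shallow libraries (0.96, adjusted p = 0.0134; 8.78% of genes called) and without the neutrophil-high libraries (12.6% of genes called; 1.06, adjusted p = 0.010). By limma it was 0.85 (SE 0.41, 95% interval 0.02 to 1.68, adjusted p = 0.463). Prpf19 encodes a ubiquitin ligase that is the core of the complex named after it, which joins the spliceosome at activation. It measured 352, 286 and 293 CPM in wild-type MEP and 156, 186 and 251 CPM in heterozygous MEP, so the genotypes did not overlap there. Elsewhere its levels were 162, 198 and 170 against 178, 224 and 226 CPM in CMP, 131, 288 and 111 against 253, 197 and 24.4 CPM in MPP4, and 137, 362 and 240 against 238, 125 and 182 CPM in MPP3. In MPP2 it was 0, 0 and 88.5 against 176, 104 and 96.5 CPM, and in HSC 34.4, 28.5 and 65.4 against 270, 634 and 46.6 CPM, the 634 being 1 count.

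The difference of Prpf19 in MEP was 0.92 by edgeR (adjusted p = 0.0118) and 0.84 by limma (SE 0.41, adjusted p = 0.452). It was not called by edgeR without the shallow libraries (0.73, adjusted p = 0.0721) or without the neutrophil-high ones (0.83, adjusted p = 0.0625), and it was 1.47 in wild-type libraries alone and 0.22 in heterozygous libraries alone by limma. Srsf6 was called in place of it without the shallow libraries (0.61, adjusted p = 0.0489) and Snrpd1, which encodes SmD1, without the neutrophil-high ones (0.96, adjusted p = 0.0203). In all libraries both just missed the threshold with edgeR, at 0.55 (adjusted p = 0.0511) and 0.82 (adjusted p = 0.0523). Snrpd2 was thus the member called in MEP by all 3 edgeR fits. MEP and CMP of 1 genotype share a pool, and in that comparison limma called 0 of 57 (0.0154% of genes; 0 members at an unadjusted p under 0.05, 1.48% of genes) and edgeR 0 of 37 (0.674% of genes; 1 member at an unadjusted p under 0.05, 9.12% of genes).

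**Figure D5:**
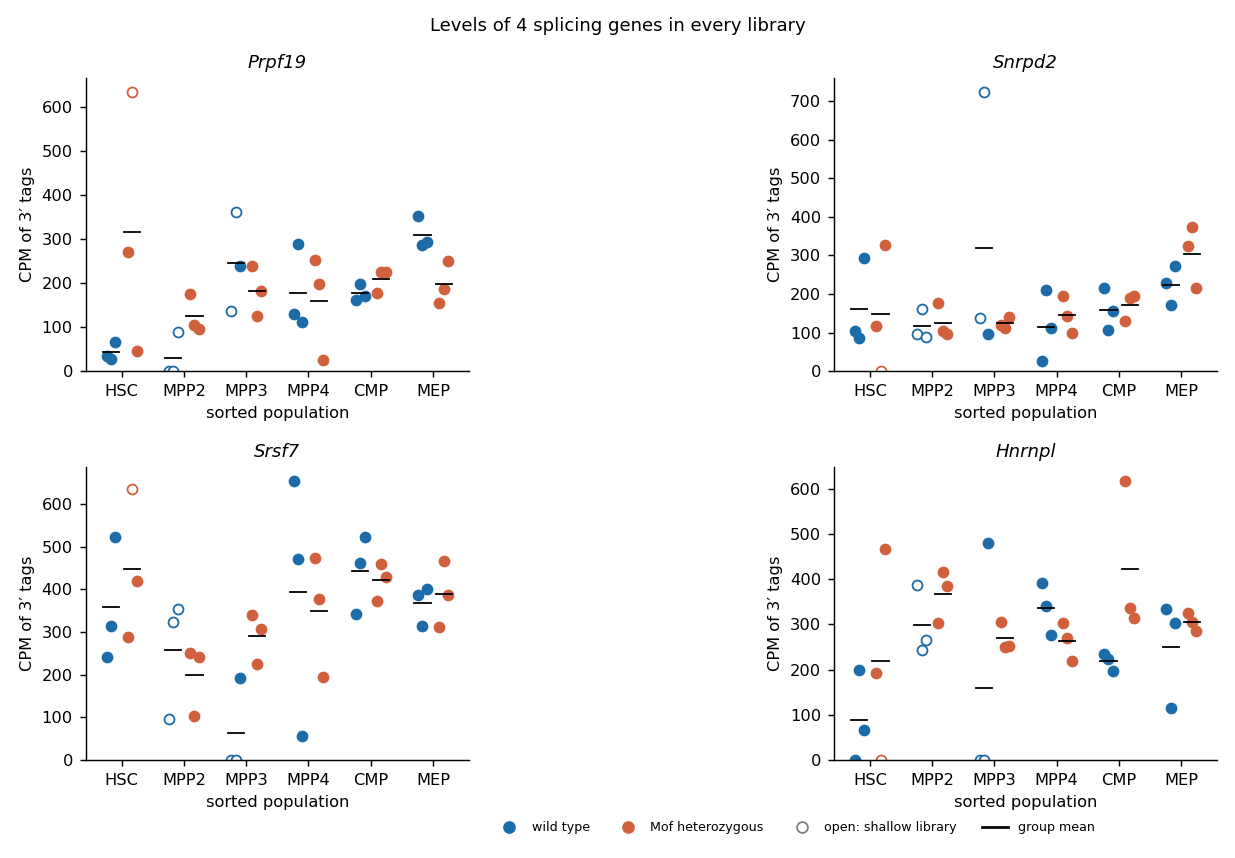
CPM of 3′ tags (y axis) of Prpf19, Snrpd2, Srsf7 and Hnrnpl in each of the 36 libraries by population (x axis; blue wild type, orange heterozygous, open for shallow libraries, black line for the mean of 3). Wild-type MEP lies at 286 to 352 CPM for Prpf19, Snrpd2 reaches 373 CPM in heterozygous MEP, and the highest Prpf19 and Snrpd2 points, 634 and 724 CPM, are 1 and 2 counts of shallow libraries.

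The promoters of the genes called by edgeR in all libraries are shown to give their sequence context, from 250 bases before to 50 after the RefSeq start (GRCm38.p6), 5′ to 3′ on the strand of the gene, with the ETS-family word CCGGAAG in capitals where it occurs. Prpf19 lies at chr19:10895231-10909559 (plus strand, its window chr19:10894981-10895280), Snrpd2 at chr7:19149722-19153542 (plus strand, window chr7:19149588-19149887) and Srsf7 at chr17:80200080-80207307 (minus strand, window chr17:80207256-80207555). None of the 3 genes overlaps another gene in the annotation.
Prpf19: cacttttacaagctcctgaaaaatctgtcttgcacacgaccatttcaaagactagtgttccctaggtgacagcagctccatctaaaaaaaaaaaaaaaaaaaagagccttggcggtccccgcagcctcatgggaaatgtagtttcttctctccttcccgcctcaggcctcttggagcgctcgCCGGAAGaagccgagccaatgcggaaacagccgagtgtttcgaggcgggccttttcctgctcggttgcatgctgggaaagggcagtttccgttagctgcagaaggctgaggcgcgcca
Snrpd2: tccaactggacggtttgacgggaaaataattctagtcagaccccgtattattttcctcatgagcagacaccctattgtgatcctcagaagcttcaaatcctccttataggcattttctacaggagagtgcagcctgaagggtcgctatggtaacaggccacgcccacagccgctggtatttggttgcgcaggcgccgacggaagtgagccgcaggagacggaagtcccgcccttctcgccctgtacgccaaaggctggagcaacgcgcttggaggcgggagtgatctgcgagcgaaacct
Srsf7: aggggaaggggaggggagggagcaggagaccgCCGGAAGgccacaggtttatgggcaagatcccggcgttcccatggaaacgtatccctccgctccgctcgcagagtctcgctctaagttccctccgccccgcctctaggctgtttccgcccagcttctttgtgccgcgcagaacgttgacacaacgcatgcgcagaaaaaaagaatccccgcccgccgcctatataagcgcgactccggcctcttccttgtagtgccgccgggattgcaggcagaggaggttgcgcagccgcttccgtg

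Of 57 members with such windows, 19 (33.3%) held CCGGAAG on either strand in at least 1 of the listed start sites, among them Prpf19, Srsf7, Srsf5, Snrpg, Sf3b2 and Prpf4b. The word stood in 24.04% of the 4912 genes that passed the filter on low values and had a window, and in 9.93% of all 27025 genes. The GATA word AGATAA was in 4 members (7.02%; 7.66% of filtered and 12.7% of all genes), the 10-letter core of the NRF1 site in 1 (1.75%; 2.75% and 1.07%) and the 11-letter core of the YY1 site in 1 (1.75%; 2.34% and 0.755%). None of these words, searched on both strands, contains another. A match is a description of letters, not of binding, and the windows do not cover all start sites in use. Only exact words were searched, so a window without capitals can hold similar ones, as that of Snrpd2 does (acggaag).

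Among the multipotent progenitors, which share a pool within each genotype, limma called 0 of 57 members (0.585% of genes; 4 members at an unadjusted p under 0.05, 13.3% of genes) and edgeR 0 of 37 (3.86% of genes; 6 members, 18.9% of genes). In MPP3 against the other 5 populations limma called 0 of 57 (0.4% of genes; 9 members at an unadjusted p under 0.05, 12.6% of genes) and edgeR 0 of 37 (1.1% of genes; 4 members, 12.9% of genes). The largest differences, chosen after their values were seen, were lower Srsf7 (-1.50, limma adjusted p = 0.0831) and Snrpd1 (-1.44, adjusted p = 0.161) and, for Hnrnpa2b1, -1.13 (adjusted p = 0.266). Hnrnpa2b1 had 685, 0 and 528 CPM in wild-type MPP3 but 783, 988 and 866 CPM in heterozygous MPP3. Its difference was -2.27 in wild-type libraries alone (called, adjusted p = 0.0346, as were 1.11% of all genes) and 0.02 in heterozygous libraries alone. Snrpd1 in MPP3 had 0, 0 and 48.0 CPM in wild type, where the 48.0 is 1 count, and 153, 75.1 and 125.7 CPM in heterozygous libraries.

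In HSC, 43 of 57 members and 68.6% of all genes were lower than in the other populations, with a median of -0.48 against -0.21 for all genes. Limma called 0 (0.508% of genes; 11 of 57 members at an unadjusted p under 0.05, 12.2% of genes), as did edgeR (2.51% of genes; 2 of 37 members, 13.2% of genes). Without the shallow libraries the median was -0.05 (all genes -0.02), and in wild-type HSC alone 0.01. In MPP2 limma called 0 members (0.0615% of genes; 2 at an unadjusted p under 0.05, 12.7% of genes), as did edgeR (0.429%; 2, against 15.3%). In MPP4 limma called 0 (1.23% of genes; 0 at an unadjusted p under 0.05, 9.69% of genes), as did edgeR (11.7%; 1, against 24.4%).

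Of 116 other splicing genes in the tables (snRNP and U2 partners, catalytic and exon junction factors, other regulators), 109 passed the filter. No genotype contrast called any of them by limma or edgeR, and for the average over populations 3 of 109 had an unadjusted p under 0.05 by limma (10.7% of all genes) and 6 of 52 by edgeR (15.1%). Between populations limma called 1 of 109, Sart3, a recycling factor of the U4/U6 particle. Its difference in HSC was -1.47 (SE 0.36, limma adjusted p = 0.0276, with 0.508% of all genes called). Sart3 was not among the genes tested by edgeR. The HSC contrast includes heterozygous HSC replicate 2, with 1577 counts, and no value of Sart3 without the shallow libraries is given here. The edgeR test called 5 of 52 among populations: Celf1, Celf2, Clk1, Ddx39b and Nhp2l1, a smaller share than the 29.3% of all genes. In MEP it called 4 of 52 (14.7% of all genes), 2 of them higher, Ddx39b (0.64, adjusted p = 0.0185), a helicase of early spliceosome assembly, and Matr3 (0.60, adjusted p = 0.0474), and 2 lower, Celf2 (-0.94, adjusted p = 0.00527) and Clk1 (-0.84, adjusted p = 0.0282), a kinase of SR proteins. In CMP it called Ddx39b (0.64, adjusted p = 0.0240; 9.31% of all genes called). None of these calls of edgeR was made by limma.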

How the data were processed

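The rule for the members uses gene symbols only, but the members and the gene lists were chosen with earlier results of these data known. The submitters' processing notes name BWA (0.6.2-r126) and the build mm10. For the counter, its use of strand, the annotation and molecular identifiers the sources used here give nothing. Read from the values, each deposited number is a signal, a gene's count times a scaling constant of the library. In each library 100% of values were whole multiples of the smallest positive one (tolerance 0.01), and division by it recovered the counts. No column of values was left unused (0). The 92 spike-in transcripts were kept out of totals. In the wild-type MEP table the spike-in names are missing, so 16696 gene names stand 92 lines early; names were taken by position from the wild-type HSC table.

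Genotype contrasts were tested with limma 3.58.1 (R 4.3.3, intensity trend) on log2(value + 1) in 1 fit of all 36 libraries with a coefficient for each of the 12 groups, for 6444 genes with a mean of at least 1. A fold change on this scale understates the change of low genes. Populations were tested on counts scaled to 41227 per library (6501 genes), because the deposited scale is set per population. The design named limma for normalised values, which the files hold. Alternatives were edgeR 4.0.16 (quasi-likelihood, TMM, 1633 genes) on the recovered counts, DESeq2 1.42.0, other scalings, pseudocounts and filters, and leaving out libraries. Fits without the 6 shallow libraries by edgeR, and without the 4 libraries in which mature neutrophil genes exceed 20000 CPM, were chosen after seeing the data. Adjusted p-values are by Benjamini-Hochberg over all genes. The fits were also run on simulated counts with the same setting of spread for all genes, and no result here rests on those runs. All 36 pairs of replicates differed by more than sampling noise (chi-square of 1.26 to 14.3 per gene), and depth per library ran from 1577 to 123765 counts. Named genes were the 3 most abundant of each role, any member called, and the 3 with the smallest p for the average genotype difference; others were named after their values were seen. The values of 1 member are not reported here. Promoter windows are from RefSeq, positions and 3′ ends from GENCODE (GRCm38), matched by symbol for 57 and 65 members.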

Additional observations from a re-analysis of the deposited data

How the results depend on the processing

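Across 17 counts of called members, each 0 by limma on all libraries, 146 of 154 other settings and 597 of 612 fits without 1 library also gave 0. The exceptions were as follows. Among populations, edgeR called 2 members (4 without the neutrophil-high libraries), and leaving out 1 library gave 0 to 3, 3 of them without heterozygous HSC replicate 2; replicate 3 of wild-type MPP3 or MPP4 left out gave 2, and replicate 1 or 3 of heterozygous HSC or wild-type MPP2 gave 1. In MEP, edgeR called 2 in each of its 3 fits. In HSC, heterozygous libraries alone gave 2, and 0 to 2 came from leaving out 1 library (1 without heterozygous replicate 1, 2 without replicate 3). In MPP3, wild-type libraries alone gave 2, and leaving out 1 library 0 to 3 (3 without heterozygous HSC replicate 2). The genotype difference in MPP3 gave 0 to 7 (7 when wild-type MPP3 replicate 3, its only deeper wild-type library, was left out, with 6.14% of genes; 4 without heterozygous HSC replicate 2, 2.54%), and that in MEP gave 1 without a filter on low values, Hnrnpa1 with 2 counts. The difference of Hnrnpa2b1 in MPP3 turned to 0.0198 in heterozygous libraries alone. The causes were not tested. No paired analysis was possible because the groups share no replicate number: columns carry running numbers. With a single-population standard error of 0.63, a 2-fold change of a member in 1 population could not be bounded, and the wild-type MPP2 group has no library that is not shallow.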

Other observations

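The number of members seen at all followed the depth of the library. In the 30 deeper libraries 45 to 62 of the 65 genes had at least 1 count (median 59), and in the 6 shallow libraries 9 to 49 (median 42).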
